A study of Mus musculus with 17 samples.

Results

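Fas, Tnfrsf14, Gna13, Klhl6 and Pim1 are genes that are recurrently mutated in human lymphomas of germinal-centre B cells. Every deposited call that names one of them was taken, which gave 9 calls at 5 sites, 1 site per gene. These are 5 of the 209 genes with a call in the series. All 9 calls came from the 2 pancreatic tumours of mouse 1. These 2 tumours also had the most calls in all, 125 in tumour 2 and 108 in tumour 1. The genes were chosen by the presence of the 9 calls, that is, by the deposited mutations and fractions given here. The 9 calls are therefore described and not tested.

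The series comprises 11 samples labelled pancreatic tumour and 6 labelled pancreatic control tissue, with 1 control for each of 6 mice. Its title links loss of GCGR function (GCGR is the receptor for glucagon) to neuroendocrine tumours of the pancreas with an origin in islet alpha cells. Exons were captured and sequenced, and each call is a site where a tumour differed from the control of the same mouse. The sources used here give no genotype, strain or age for single mice. The animals had standard chow and were given no treatment. Exome data hold no expression, so the labelled tissue could not be checked against cell type markers.

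In the germinal centre, B cells divide rapidly while mutations are introduced into their immunoglobulin genes, a process called somatic hypermutation. The process also reaches some other transcribed genes, mainly near the start of the gene. Lymphomas that arise from these cells often carry changes in genes that govern cell death, contact with T cells, confinement to the follicle and B-cell receptor signalling. The 5 genes cover these functions, and Pim1 is in addition a known off-target of hypermutation in human lymphoma.

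Fas encodes a death receptor through which T cells remove B cells. Its call changed the conserved base at the start of an intron, a splice donor (c.431+1G>A, chromosome 19, 34316678, G to A, gene ENSMUSG00000024778). The deposited rank placed it at 4 of 8, which for a splice donor counts introns. The allele fraction, the share of reads at the site that carry the changed base, was 27.5% in tumour 2, 13.6% in tumour 1 and 0 in the control of mouse 1. Control fractions here and below are from a column read by its name alone as the matched control. The fraction in tumour 2 was thus 2.02 times that in tumour 1, the widest gap among the 4 genes called in both tumours.

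Tnfrsf14 encodes HVEM, a receptor of the TNF receptor family that engages the inhibitory receptor BTLA. The missense change D159G altered residue 159 of 275 (c.476A>G, chromosome 4, 154924489, T to C on the reference strand, gene ENSMUSG00000042333, exon rank 5 of 8). It was called in tumour 1, at 15.3%, with 0 in the control. No call was listed in tumour 2, whose fraction at this site is therefore unknown. This was also the only call of the 9 in the deposited tier 2. It was 1 of the 5 calls of these genes in tumour 1, where 12 of all 108 calls were in tier 2. In tumour 2, 16 of all 125 calls were in tier 2. Among the 17 calls found in tumour 1 and not in tumour 2, it had the second highest fraction, where the highest was 20% and the median 6.60%.

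Gna13 encodes the alpha subunit of the G protein G13, which restrains the migration and survival of germinal-centre B cells. The missense change S31P altered residue 31 of 377 (c.91T>C, chromosome 11, 109363064, T to C, gene ENSMUSG00000020611, exon rank 1 of 4). Its fraction was 30.8% in tumour 2, 24.6% in tumour 1 and 0 in the control. It had the highest of the 4 listed fractions in tumour 2 and of the 5 in tumour 1, and stood sixth of 125 calls in tumour 2 and seventh of 108 in tumour 1.

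Klhl6 encodes a BTB and kelch protein that serves as substrate adaptor of a cullin ubiquitin ligase and acts in B-cell receptor signalling. The missense change L88P altered residue 88 of 619 (c.263T>C, chromosome 16, 19982741, A to G on the reference strand, gene ENSMUSG00000043008, exon rank 1 of 7). Its fraction was 11.2% in tumour 2, 6.20% in tumour 1 and 0 in the control. Both values lay below the median of all calls of their tumour, which was 14.7% in tumour 2 and 11.8% in tumour 1.

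Pim1 encodes a serine/threonine kinase that promotes survival and growth of lymphoid cells. Its call was a splice donor change like that of Fas (c.82+1G>A, chromosome 17, 29491226, G to A, gene ENSMUSG00000024014, intron rank 1 of 5). The fraction was 8.20% in tumour 2, 7.29% in tumour 1 and 0 in the control. This was the lowest of the 4 listed fractions in tumour 2 and the second lowest of 5 in tumour 1.

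**Figure D1:**
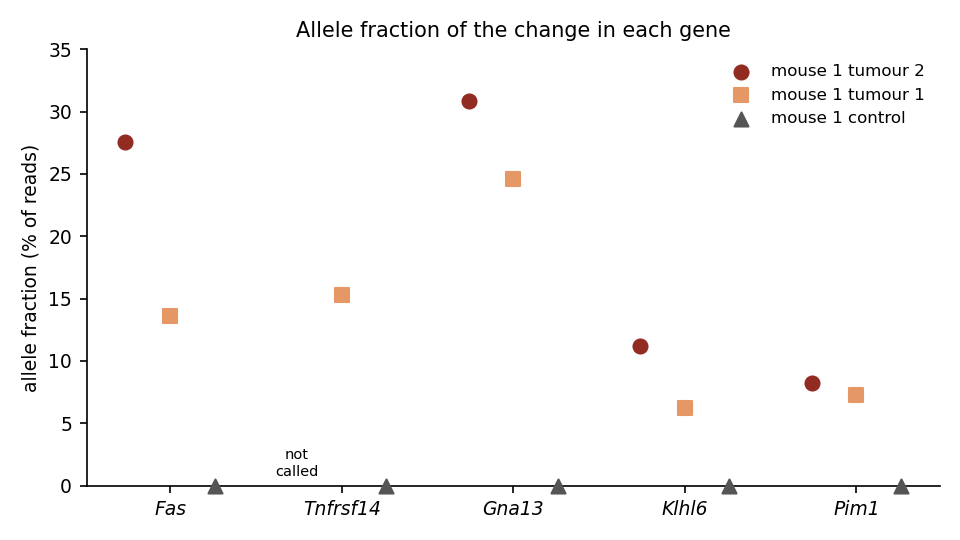
Allele fraction in percent of reads for the single change in each of the 5 genes, in tumour 2, tumour 1 and the control of mouse 1; each point is 1 sample, with no error bar because read depth is unknown. Gna13 has the highest listed fraction in each tumour (30.8% and 24.6%), all 5 controls are at 0, and Tnfrsf14 has no call in tumour 2.

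The remaining question was what the changes share apart from their genes. All 5 were transitions, that is, changes between A and G or between C and T. Read on the strand of the gene, 2 were G to A, 2 were T to C and 1 was A to G. Transitions made up 9 of 17 immunoglobulin sites (52.9%), 62 of 116 other single-base sites of mouse 1 (53.4%) and 53 of 116 in mice 2 to 6 (45.7%). With 5 sites in 5 chosen genes, this is a description and not a test.

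The Fas and Pim1 changes were the only splice donor changes without a frameshift among the 264 sites of the series, each site counted once per mouse. With splice acceptor changes included there were 4 such sites, of which 1 was in an immunoglobulin gene. Deposited high-impact annotations covered 2 of the 5 sites (40%) and 1 of 17 immunoglobulin sites (5.88%). They covered 6 of 120 other sites of mouse 1 (5%) and 9 of 122 sites in mice 2 to 6 (7.38%). None of the 5 sites carried an identifier of a variant database, and all 9 calls had the deposited genotype 0/1.

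Position within the gene was measured from the outer end of the RefSeq gene span in the GRCm38 annotation. Gna13 lay 270 bases from the gene start, Klhl6 308 and Pim1 441. Tnfrsf14 lay 4131 bases from it, or 3588 from the nearest upstream start in the RefSeq promoter table, and Fas 26031 bases. Thus 3 of the 5 sites (60%) were within 1 kb of the start, and the same 3 lay in the first exon or intron of their gene. Of the other sites of mouse 1 outside immunoglobulin genes, 29 of 108 (26.9%) were within 1 kb, and in mice 2 to 6 the number was 17 of 103 (16.5%). In genes of over 1 exon or intron, 22 of 98 such other sites of mouse 1 (22.4%) and 11 of 101 in mice 2 to 6 (10.9%) were in the first. All 14 immunoglobulin sites with a distance were within 1 kb. Most were in variable and joining segments, genes so short that nearly any site lies near the start, so this count is no comparison of position. In immunoglobulin genes of over 1 exon or intron, 1 of 10 sites (10%) was in the first.

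**Figure D2:**
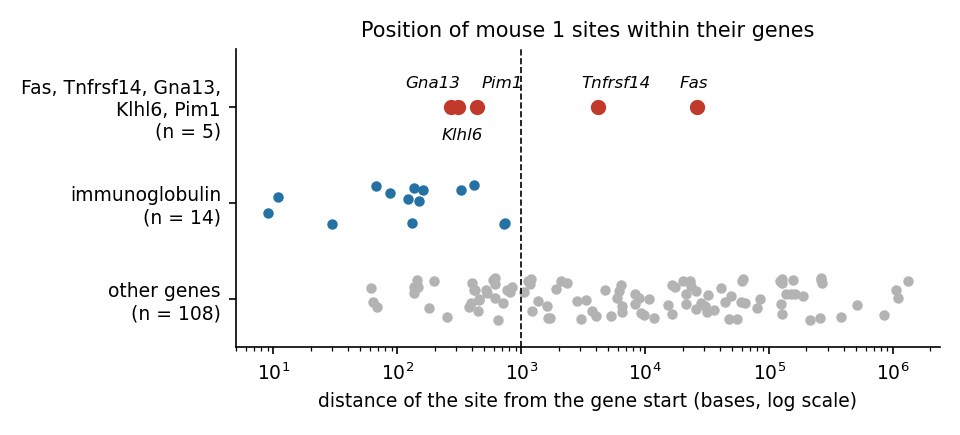
Distance in bases (log scale) of each mouse 1 site from the start of its gene, 1 point per site, for the 5 genes, immunoglobulin genes and all other genes; points are spread vertically for visibility and the dashed line marks 1000 bases. Gna13, Klhl6 and Pim1 lie at 270 to 441 bases, Tnfrsf14 at 4131 and Fas at 26031.

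The 5 sites lay on 5 chromosomes. The nearest other site of mouse 1 was 4.77 to 12.4 Mb away for Gna13, Pim1, Fas and Tnfrsf14. For Klhl6 it was 0.897 Mb away, in the immunoglobulin light-chain segment Iglv1 on chromosome 16.

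Immunoglobulin calls, those whose transcript biotype begins with IG, appeared in the same 2 tumours. Mouse 1 had 17 such sites in 8 genes, and mice 2 to 6 had 0 of them and 0 sites in the 5 genes. Mouse 1 also had 142 of the 264 sites of the series, against 7 to 46 in each other mouse. Tumour 2 had 17 immunoglobulin calls and tumour 1 had 12. All 12 immunoglobulin sites of tumour 1 were also called in tumour 2, as were 91 of all 108 calls of tumour 1.

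If every site came from a single population of cells in which each cell carried the change on 1 of 2 copies, all sites of a tumour would share 1 allele fraction apart from sampling. The 4 genes called in both tumours spanned a range of 3.76 times between lowest and highest in tumour 2 and 3.96 times in tumour 1. The 12 shared immunoglobulin sites spanned 5.09 times in tumour 2 and 4.68 times in tumour 1. The 75 other shared sites spanned 6.90 times in tumour 2 and 15.6 times in tumour 1. Their highest fraction was at a chromosome X site in each tumour, 35.8% in tumour 2 and 43.5% in tumour 1. A range of lowest to highest tends to widen with the number of sites, so the 3 groups are not directly comparable. With the change on 1 of 2 copies in each carrying cell, the Gna13 fractions would correspond to 61.7% of cells in tumour 2 and 49.2% in tumour 1. Those of Klhl6 would correspond to 22.4% and 12.4%. The depth cells of the deposited table are empty, so none of these spreads can be set against sampling error. Copy number, that of chromosome X included, and misplacement of reads among similar immunoglobulin segments were not tested.

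The medians of the groups were closer than their ranges. The median of the 4 genes in tumour 2 lay in a gap, however, between Klhl6 (11.2%) and Fas (27.5%). In tumour 2 the median was 19.4% over the 4 shared sites of the genes described, 14.8% over the 12 shared immunoglobulin sites and 16.1% over the 75 other shared sites. In tumour 1 it was 10.5%, 9.93% and 12.5% in the same order, and 13.6% over all 5 genes with Tnfrsf14 included. Immunoglobulin sites ranged from 3.88 to 19.8% in tumour 2 and from 3.64 to 17.0% in tumour 1. Klhl6 and Pim1 lay inside these ranges in both tumours, Fas inside in tumour 1 and above in tumour 2, and Gna13 above in both. For comparison, 59 of 79 shared sites outside immunoglobulin genes lay inside the immunoglobulin range in tumour 2, and 58 of 79 in tumour 1. Between the lower and upper quartile of all 91 shared sites lay 0 of the 4 genes in tumour 2 and 1 in tumour 1. Of all shared sites, 49.5% lay there in each tumour.

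Single immunoglobulin sites show where the 4 genes fall. The joining segment Igkj4, of the kappa light chain, was at 19.0% in tumour 2 and 17.0% in tumour 1 (N11D). The lambda light-chain segment Iglv1 was at 19.8 and 14.7% in tumour 2 and at 14.5 and 13.6% in tumour 1 for its 2 sites. The heavy-chain constant gene Ighm was at 12.1% in tumour 2 and 6.90% in tumour 1 (F207L), close to Klhl6 in both. In the variable segment Ighv1-15 alone, 3 shared sites ranged from 3.88 to 14.8% in tumour 2 and from 4.52 to 9.34% in tumour 1. These 3 sites lay within 201 bases of each other, and their highest fraction was 3.82 times the lowest in tumour 2 and 2.07 times in tumour 1.

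**Figure D3:**
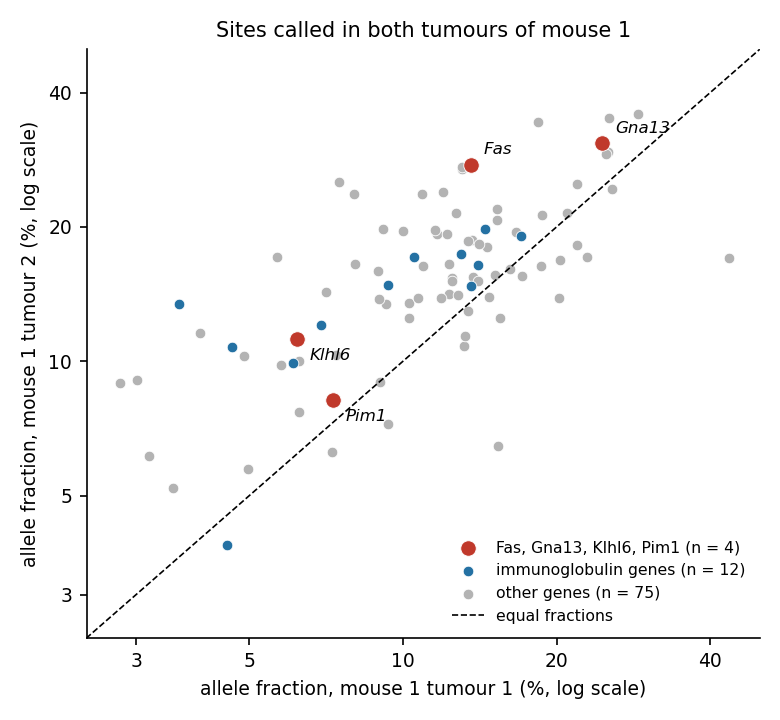
Allele fraction in tumour 2 against tumour 1 of mouse 1, in percent on log scales, for the 91 sites called in both; red points are the 4 genes, blue the 12 immunoglobulin sites, grey the 75 other sites, and the dashed line marks equal fractions. Klhl6 and Pim1 lie among the lower immunoglobulin sites, and Fas and Gna13 near the top in tumour 2.

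A population present at different levels in the 2 tumours would shift all its sites by 1 ratio. The ratio of tumour 2 over tumour 1 was 2.02 for Fas, 1.81 for Klhl6, 1.25 for Gna13 and 1.12 for Pim1, with a median of 1.53. The median was 1.48 over the 12 immunoglobulin sites, whose ratios ranged from 0.858 to 3.70, and 1.29 over the 75 other sites, which ranged from 0.393 to 3.36. All 4 ratios of the genes described lay inside the immunoglobulin range. That range ran from place 1 to place 82 of the 91 shared sites ordered by ratio, so most shared sites lay inside it too.

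All 4 genes had a higher fraction in tumour 2, as did 11 of 12 immunoglobulin sites and 79.1% of all 91 shared sites. A ratio of at least 1.5 was reached by 2 of the 4 genes, 6 of 12 immunoglobulin sites and 36.3% of the shared sites. The direction is thus that of most shared sites. Across the 91 sites, the log2 fractions of the 2 tumours had a Pearson correlation of 0.67 (0.70 over the 12 immunoglobulin sites), given as a description because the sites share the same 2 libraries.

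**Figure D4:**
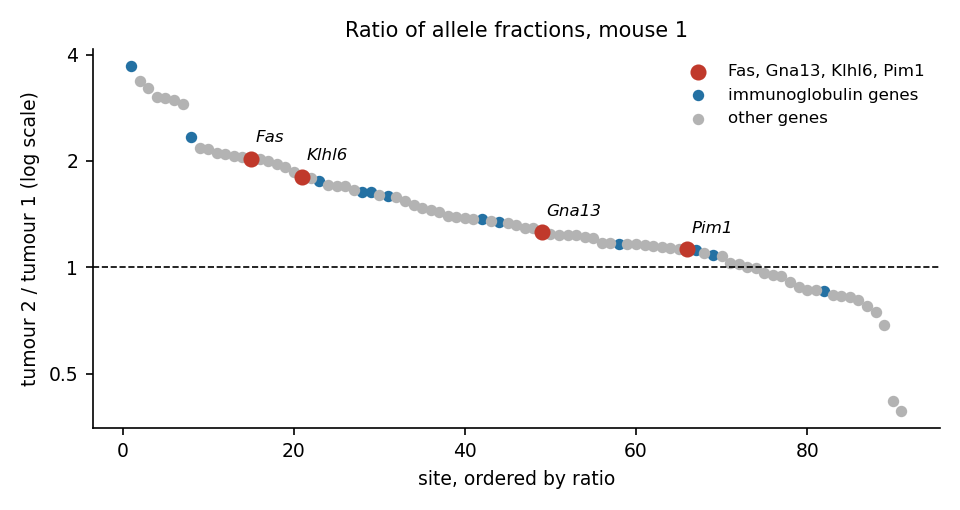
Ratio of the allele fraction in tumour 2 over tumour 1 (log scale) for the 91 sites called in both tumours of mouse 1, ordered from highest to lowest; the dashed line marks a ratio of 1. Fas (2.02) and Klhl6 (1.81) stand at places 15 and 21 of 91, and Gna13 (1.25) and Pim1 (1.12) at places 49 and 66, below the median of all 91 sites (1.32).

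The control of mouse 1 had 0 changed reads listed at all 5 sites. It also had none at 10 of the 12 shared immunoglobulin sites and at 63 of the 75 others. Calls were selected as tumour-specific, so low control fractions follow from the selection.

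The sites whose pair of fractions was most like the median pair of the 4 genes (19.4% in tumour 2 and 10.5% in tumour 1) were in Ptprz1, Gm12666, Man1a, Ighv1-18 and 4933428G20Rik. Likeness was the distance between log2 fractions over the 2 tumours, and these sites lay 0.07 to 0.19 from the median pair. The 4 genes themselves lay farther from it, at 0.63 for Fas, 1.09 for Klhl6, 1.34 for Pim1 and 1.40 for Gna13. The named sites are thus near a midpoint and not near any single gene of the 4. Ptprz1, a receptor tyrosine phosphatase gene, was nearest, with M1507T at 19.6% in tumour 2 and 10% in tumour 1. The immunoglobulin segment Ighv1-18 had T49P at 17.2% in tumour 2 and 10.5% in tumour 1.

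Lists of genes that act with the 5 genes or are mutated in the same lymphomas were read for further calls. The lists leave out the 5 genes themselves and were chosen with earlier results of these data known. Over all lists 1 of 144 genes had a call (0.694%). Of the 21900 protein-coding genes in the reference table, 0.849% had one. Because the 5 called genes are left out, the share of the lists is not that of lymphoma genes as a whole. Of 74 other genes mutated in germinal-centre lymphomas, among them Bcl6, Myc, Kmt2d and Crebbp, 0 had a call. The same held for 12 genes of Fas death signalling, 10 of G13 signalling, 9 around the Pim kinases, 9 around Klhl6 and B-cell receptor signalling, and 13 partners of Tnfrsf14 or its receptor family. Of 17 genes of hypermutation, cytidine deamination and DNA repair, 1 had a call: Apobec3, a cytidine deaminase gene, carried the frameshift R50fs at residue 50 of 440 (chromosome 15, 79895473). It was at 10% in tumour 2, 6.25% in tumour 1 and 0 in the control. A gene without a call is not shown to be unmutated, since coverage is unknown and calls outside coding and splice sequence were not analysed here.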

How the data were processed

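Exomes of 11 pancreatic tumours and 6 control samples were analysed from 1 deposited table. The submitters' processing notes name BWA and GATK without versions, and GRCh38, a human build, and the labels' protocol names a human exome capture kit. Per the file headers, calls are from Strelka. Gene identifiers and positions are of mouse and were read as GRCm38. The authors deposited allele fractions from 0 to 1, printed here as percentages, a tier and, for some calls, a quality score. The tier and the control fraction are read from column names alone. Read depth is unknown, so no interval is given. In the copy analysed 12 of 402 lines are blank, 0 of them next to a line of the 5 genes in the table, which is sorted by chromosome and position.

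Sites were identified by position and alternate base. Ranks had been turned into dates in the sheet and were read back as month of day: in 313 of 313 such cells the month did not exceed the day. Codons computed from the coding position matched the deposited residue in 3 of 3 missense changes. Gene starts came from RefSeq tables (GRCm38.p6), with a distance for 230 of 264 sites. No test was run: 2 tumours of 1 mouse are not independent, sites are not replicates, and the genes were chosen for their calls. The genes, lists and the rule for named genes (the 5 genes, list genes with a call, immunoglobulin genes of the same tumours and the 5 genes nearest in fraction) were chosen with earlier results of these data known. A listed gene is not reported here. The calculation of ratios was run on simulated pairs of known ratio, which checks the code and not the reported values. Python 3.11.15, pandas 2.3.3 and numpy 2.4.6 were used.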

Additional observations from a re-analysis of the deposited data

Results flagged for a closer look

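Over the 6 mice, mouse 1 stood far from the others in 2 counts. It had 5 distinct sites in Fas, Tnfrsf14, Gna13, Klhl6 and Pim1, against 0 in each other mouse, and 17 distinct immunoglobulin sites, against 0 in each other mouse. The 5 genes were chosen for having calls, and mouse 1 also had the most sites in all (142, next 46), so the usual chance rate of about 1 in 20 does not apply to these counts.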

How the results depend on the processing

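With allele fractions of at least 0.1, the median fraction of the genes became 27.5% in tumour 2 and the median ratio of tumour 2 over tumour 1 became 1.64, because Klhl6 was left without a call in tumour 1 and Pim1 in both tumours. The median ratio of the immunoglobulin sites was 1.61 with tier 1 calls, 1.25 with fractions of at least 0.1, 1.59 with protein-altering calls and 1.35 with each gene counted once. In each of these settings fewer sites entered, and the ratio stayed above 1. The number of sites in the 5 genes was 4 with tier 1 calls (without Tnfrsf14), with fractions of at least 0.1 (without Pim1) and over sites called in both tumours, an alternative chosen after seeing the data, and 5 under the other settings. The count was 4 to 5 when a tumour of mouse 1 was left out. Tier 1 calls gave a median of 10.5% in tumour 1. No paired analysis was possible because the results come from no test and calls exist for tumours only. Depth is unknown, which limits every comparison of single fractions.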
